A study of Homo sapiens with 12 samples.

Results

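Doxycycline induction of an ARID1A hairpin was compared with no treatment in SK-N-DZ cells that received no interferon gamma (IFNγ). Members are the 6 libraries labelled Dox 1 to 3 and Control 1 to 3, out of 12 bulk RNA-sequencing libraries in the series, and they were chosen by treatment label alone. SK-N-DZ is a neuroblastoma line with amplified MYCN. The study derived from it clonal lines, selected with puromycin, that carry a lentiviral Tet-pLKO vector in which doxycycline turns on a short hairpin RNA against ARID1A. The untreated group (C) has the genotype label WT, and the doxycycline group (D) the label shARID1A with 4 days of doxycycline. The paper says that the sequencing used SK-N-DZ shARID1A cells. Whether the label WT stands for the uninduced clone or for cells without the vector, and which hairpin and clone were used, is not stated in the sources used here. The other 6 libraries had IFNγ for 24 hours, alone (I) or with doxycycline (DI). No library is labelled as combining doxycycline with cells lacking the hairpin, so effects of the antibiotic, of any hairpin, of clonal origin and of ARID1A loss cannot be told apart. The labels do not say whether replicates were separate cultures, so p-values measure the spread between these samples, which may be technical.

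ARID1A is a DNA-binding subunit of the SWI/SNF (BAF) chromatin remodeling complex, which slides and evicts nucleosomes, and its paralog ARID1B takes the same seat in other copies of the complex. Doxycycline is a tetracycline antibiotic that binds bacterial ribosomes and also the bacterial-type ribosomes of mitochondria. Mitochondria transcribe both strands of their small circular genome into long precursors that are cut into mRNAs, rRNAs and tRNAs. When mitochondrial function or amino acid supply is disturbed, cells phosphorylate eIF2α and make more of the transcription factor ATF4. ATF4 raises genes for amino acid transport and synthesis and for tRNA charging, and it binds a C/EBP-ATF element in their promoters, which can be written TGATGNAA, N being any base.

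The element was searched on both strands in RefSeq promoter windows (GRCh38.p14) that run from 250 bases before to 50 bases after each transcription start. It lay in 3.62% of all 35116 windows, and 4.46% of 27305 genes had at least 1 window with it. Among tested genes with a window it was present in 7 of 16 cytosolic aminoacyl-tRNA synthetase genes (43.8%), 6 of 14 amino acid transporter genes (42.9%), 4 of 17 ATF4 regulators and stress effectors (23.5%) and 3 of 13 genes of serine, folate, proline and asparagine synthesis (23.1%). It was present in 1 of 14 mitochondrial aminoacyl-tRNA synthetase genes (7.14%) and 1 of 22 glycolysis genes (4.55%). A match is a description of letters, not a binding site. The 4 stretches shown here, each ending at the base before the start, belong to genes from the groups described below, and capitals mark the element on either strand. The genes were picked by hand and only windows with the element before the start are shown, so they do not represent their groups. ATF3 and ASNS have 2 windows each, of which 1 is shown.
CHAC1, chr15:40953221-40953470, plus strand: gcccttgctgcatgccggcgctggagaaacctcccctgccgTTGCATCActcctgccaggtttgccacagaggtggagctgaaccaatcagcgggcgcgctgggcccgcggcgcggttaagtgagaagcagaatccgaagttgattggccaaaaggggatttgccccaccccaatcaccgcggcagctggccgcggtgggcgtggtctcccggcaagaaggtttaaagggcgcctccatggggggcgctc
ATF3, chr1:212565157-212565406, plus strand: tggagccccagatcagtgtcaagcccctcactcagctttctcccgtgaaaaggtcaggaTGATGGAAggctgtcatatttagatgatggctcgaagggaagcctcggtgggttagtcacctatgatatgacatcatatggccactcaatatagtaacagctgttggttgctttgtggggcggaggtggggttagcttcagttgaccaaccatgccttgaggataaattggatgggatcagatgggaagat
ASNS, chr7:97872409-97872658, minus strand: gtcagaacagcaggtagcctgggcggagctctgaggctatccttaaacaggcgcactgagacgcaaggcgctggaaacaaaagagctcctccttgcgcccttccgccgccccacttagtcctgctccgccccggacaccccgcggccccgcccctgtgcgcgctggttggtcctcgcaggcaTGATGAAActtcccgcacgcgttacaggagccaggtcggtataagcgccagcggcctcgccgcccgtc
AARS1, chr16:70289507-70289756, minus strand: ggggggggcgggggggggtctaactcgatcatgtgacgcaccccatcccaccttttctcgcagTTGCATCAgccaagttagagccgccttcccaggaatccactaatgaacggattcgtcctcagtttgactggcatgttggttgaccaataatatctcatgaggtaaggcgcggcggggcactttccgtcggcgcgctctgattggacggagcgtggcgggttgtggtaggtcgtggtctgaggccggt
The element lay 201 bases before the start in CHAC1, 183 in ATF3, 60 in ASNS and 179 in AARS1. It was written as TGATGNAA in ATF3 and ASNS and as its reverse complement, TTNCATCA, in CHAC1 and AARS1.

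Libraries held 16469832 to 20157365 counts in C and 16617535 to 20338499 in D, at which 3 counts equal 0.143 to 0.187 CPM, the counts of a gene scaled to the size of its library. Library pairs within a group had Pearson correlations of log2 CPM from 0.9416 to 0.9739 across genes, the lowest being D2 with D3. The labelled cell type was checked by markers: all 11 adrenergic neuroblastoma markers were detected, with a summed level of 5010 to 6140 CPM. Leukocyte markers summed to at most 0.187 CPM with all 4 at or below 3 counts in each library, endothelial markers to at most 2.27 CPM and epithelial markers to at most 2.95 CPM. Schwann cell markers summed to 4.79 to 7.23 CPM in C and 1.6 to 3.24 CPM in D, and fibroblast markers to 32.7 to 57.3 CPM in C and 23 to 52.9 CPM in D. Their part in the results was not tested. In bulk RNA, fewer cells of a type and less RNA per cell cannot be told apart.

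D2 stood apart from D1 and D3 for hypoxia genes such as SLC16A3, CA9 and NDRG1. In these D1 and D3 were far below the untreated libraries and D2 was not. Over glycolysis genes the median log2 ratio to the same-numbered untreated library was -1.11, 0.05 and -1.33 for D1 to D3. Yet 7 of 24 glycolysis genes were lower in every D library than in every C library, against 9.1% of all genes tested. D3 was far above D1 and D2 for several amino acid response genes, among them INHBE, CHAC1 and SLC7A11, though not for SLC43A2.

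The targeted gene was read first. ARID1A (chr1:26693236-26782110 in GRCh38, plus strand) was at 197, 186 and 165 CPM in C and 197, 159 and 158 CPM in D. The groups overlapped, and the log2 fold change was -0.09 (SE 0.109), with an adjusted p = 0.788 by edgeR's quasi-likelihood test. It ran from -0.27 to -0.005 over the other fits, and from -0.21 to -0.04 without 1 library. ARID1A was called in none of these edgeR and DESeq2 fits, where the lowest adjusted p was 0.0629. An exact permutation test, two-sided, of 3 libraries against 3 gave p = 0.6, where the smallest possible p is 0.1. Counts over the whole gene would not show a loss of protein alone, and protein was not analysed here. The study measured ARID1A in induced SK-N-DZ clones by qPCR and Western blot, and describes its loss and decreased protein levels. The paper says that SK-N-DZ shARID1A cells were sequenced, and its legend groups the sequencing with the qPCR under the same inducible clones. Whether 1 clone or the same cultures served both is not given. ARID1B, the paralog, was at 141, 138 and 118 CPM in C and 203, 200 and 169 CPM in D, so that no D library fell into the range of C. It rose by a log2 fold change of 0.52 (SE 0.103, adjusted p = 0.0383 by edgeR), and the call was lost when a gene-length trend described below was removed (adjusted p = 0.497). Without 1 library at a time its adjusted p ran from 0.038 to 0.174, being under 0.05 only without D3. ACTL6B, the neuronal actin-like subunit, was at 43.8, 57.2 and 59.3 CPM in C and 27.2, 33.0 and 34.2 CPM in D. Its log2 fold change of -0.77 missed the threshold (adjusted p = 0.0541 by edgeR) and passed with the replicate block (0.00248). Among 30 SWI/SNF subunits tested, ARID1B was the only one called (against 0.493% of all genes called higher), and the median log2 fold change was 0.15.

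Across all 15828 genes tested, 194 differed between D and C (1.23% at an edgeR adjusted p under 0.05), 78 higher (0.493%) and 116 lower (0.733%). Of these, 14 rose and 39 fell by at least 1 on the log2 scale, and 184 were protein coding. Groups did not overlap for all 194, against 19.2% of all genes tested. Same-numbered libraries deviated together, though the labels do not say what the numbers mark. A fit with the replicate number as a block called 2200 genes (13.9%), 986 higher (6.23%) and 1214 lower (7.67%), all 194 among them. On only the 6 libraries the blocked fit called 420 (2.84%), which is the share to set beside list counts from that fit below. When only the 6 libraries were fitted, which leaves fewer samples to estimate the spread, 16 genes were called, all among the 194. Scaling by library size alone called 199 genes higher and 89 lower, a share of 69.1% higher in place of 40.2%, and it moved the median of all genes from -0.0012 to 0.09 on the log2 scale. Values below are relative to TMM scaling.

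Whichever C or D library was left out, 30 genes stayed called, 27 of them lower and 3 higher. When only the 6 libraries were fitted, 10 of the 30 were still called, among them PKIA, BEX1, TMBIM6, STARD4, CCAR1, MOSPD3 and ND6, and 20 were not, among them ARPP19, STMN2, PTGFRN, ALDH1L2, FRMD8, TMEM167B and DNAJB9. PKIA, an inhibitor peptide of protein kinase A, was at 66.7, 63.6 and 70.7 CPM in C and 14.6, 11.9 and 10.1 CPM in D. It had the smallest p of all genes, with a log2 fold change of -2.45 (SE 0.183, adjusted p = 0.000654 by edgeR). BEX1, a brain-expressed X-linked protein, was at 51.1, 52.5 and 53.2 CPM in C and 17.9, 12.4 and 16.2 CPM in D, a log2 fold change of -1.76 (SE 0.179). TMBIM6, also known as BAX inhibitor 1 of the endoplasmic reticulum membrane, was at 329, 338 and 325 CPM in C and 157, 133 and 125 CPM in D. In all 3 of these genes the untreated libraries were close together and every D library was far below the lowest of them. The log2 fold change was -1.26 (SE 0.123) for TMBIM6.

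STARD4, which carries cholesterol between membranes, was at 165, 177 and 201 CPM in C and 81.6, 71.4 and 82.5 CPM in D, and fell by 1.21 on the log2 scale (SE 0.112). ARPP19, a cAMP-regulated phosphoprotein that inhibits PP2A at mitosis, was at 415, 442 and 466 CPM in C and 260, 229 and 261 CPM in D, with a log2 fold change of -0.82 (SE 0.0835). STMN2, a neuronal regulator of microtubules, was at 449, 369 and 461 CPM in C and 135, 194 and 165 CPM in D, with a log2 fold change of -1.37 (SE 0.165). MOSPD3 (-1.08), FRMD8 (-1.15) and TMEM167B (-1.42) completed the lower nuclear genes with the smallest adjusted p. The chaperone DNAJB9 of the endoplasmic reticulum also stayed called (-0.95). Other members of these 30, chosen after their values were seen, were ANAPC11, the RING subunit of the anaphase-promoting complex (-1.70), and MOB1A, a Hippo pathway adaptor (-0.96).

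The 3 higher genes were CCAR1, PTGFRN and ALDH1L2. CCAR1, a transcriptional coactivator that also regulates the cell cycle and apoptosis, was at 130, 136 and 127 CPM in C and 250, 268 and 246 CPM in D. Its log2 fold change was 0.96 (SE 0.0909, adjusted p = 0.00224 by edgeR). PTGFRN, a tetraspanin-associated membrane protein, was at 63.2, 68.4 and 61.0 CPM in C and 114, 109 and 105 CPM in D, with a log2 fold change of 0.77 (SE 0.0819). ALDH1L2, the mitochondrial 10-formyltetrahydrofolate dehydrogenase of folate metabolism, was at 12.7, 10.8 and 7.42 CPM in C and 29.5, 29.3 and 34.0 CPM in D, with a log2 fold change of 1.58 (SE 0.211, adjusted p = 0.00765 by edgeR). In none of the 3 did a D library come near the untreated range.

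**Figure D1:**
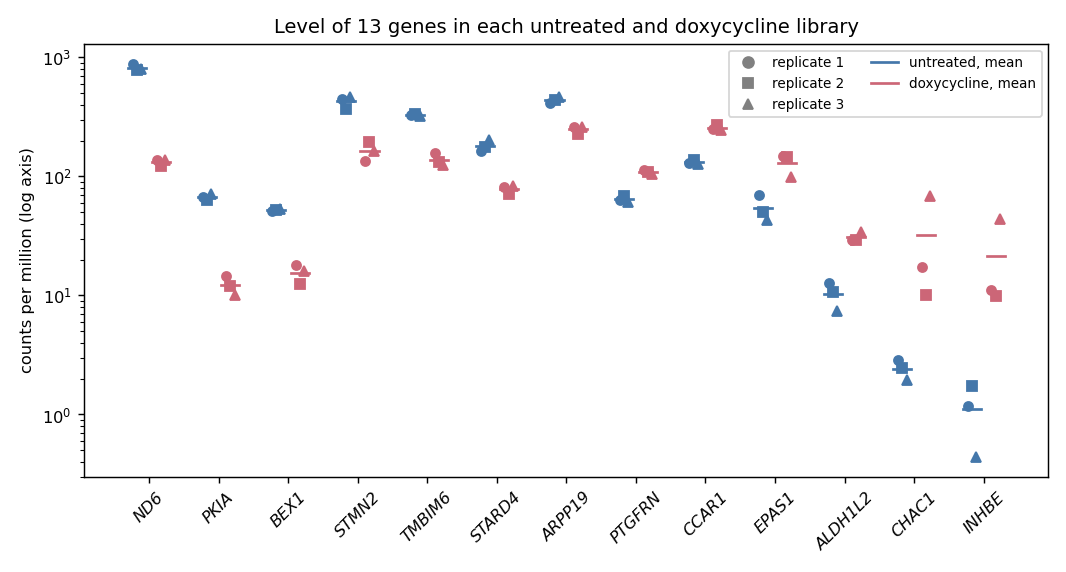
CPM (log axis) of 13 genes in the 3 untreated and 3 doxycycline libraries, with a bar at each mean. PKIA, BEX1 and TMBIM6 fall in tight groups, while CHAC1 and INHBE rise with a wide spread in which D3 is highest.

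Mitochondrial mRNAs, which encode respiratory chain and ATP synthase subunits, were lower in D throughout. All 13 mitochondrial mRNAs were lower in each D library than in each C library, against 9.1% of all genes tested. Their log2 fold changes ran from -2.63 to -0.99. Their share of all counts went from 3.35 to 4.99% in C to 0.856 to 1.3% in D. edgeR called 6 of them, against 0.733% of all genes called lower, and 13 with the replicate block, against 7.67%. On only the 6 libraries it called 5, where 16 genes were called in all, and 13 with the block. The number called ran from 1 (without D1 or D2) to 4 (without C3) when a library was left out, and was 3 without C1 or C2 and 2 without D3. The median log2 fold change stayed between -2.09 (without D1) and -1.74 (without C1). The median over all tested genes was -0.0012.

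ND6, a complex I subunit, is the only mRNA on the minus strand (chrM:14149-14673). It was at 885, 783 and 795 CPM in C and 139, 123 and 136 CPM in D, and fell by 2.63 on the log2 scale (SE 0.267, adjusted p = 0.00224 by edgeR). It was the only mitochondrial mRNA called whichever library was left out. ND4 and ND4L, complex I subunits whose genes overlap by a few bases, had log2 fold changes of -2.50 and -2.34. COX1, the catalytic subunit of complex IV, was at 12682, 10672 and 8717 CPM in C and 2653, 2181 and 1723 CPM in D, with a log2 fold change of -2.29 (SE 0.378). ND5 (-2.02) and ND3 (-1.74) were the other mRNAs called. In these genes D values were far below the lowest untreated library. ND4 and ND4L lost their calls without D1, D2 or D3 (adjusted p up to 0.0608), ND5 without C1, C2, D1 or D2 (up to 0.0669), and COX1 and ND3 without any 1 library (up to 0.0716 and 0.131). With only the 6 libraries fitted, ND6, ND4, ND4L, ND5 and COX1 were called and ND3 was not (adjusted p = 0.0722 by edgeR).

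The smallest changes were those of ATP8 (-0.99), ND2 (-1.11) and ATP6 (-1.24), of which ATP8 and ATP6 overlap and share reads, and none of these 3 passed without the block. CYTB (-1.96), COX3 (-2.03), COX2 (-1.88) and ND1 (-1.85) also missed the threshold without the block. The rRNAs behaved otherwise. RNR1, of the small ribosomal subunit, was at 1274, 922 and 966 CPM in C and 624, 1348 and 1513 CPM in D, and RNR2, of the large subunit, at 16910, 13595 and 10145 CPM in C and 7853, 7979 and 10146 CPM in D. Both overlapped between groups and neither was called, with or without the replicate block (RNR1 0.14, adjusted p = 0.894; RNR2 -0.65, adjusted p = 0.283, and 0.0897 with the block, by edgeR). RNA selection before sequencing is not given in the sources used here, and its effect on rRNA counts was not tested.

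The mitochondrial tRNAs that were called lay on the minus strand. Of 22 tRNA genes, 15 passed the filter on low counts, and 4 were called, all lower, against 0.733% of all genes. The 4 were TRNN (-1.74), TRNC (-1.70), TRNP (-1.93) and TRNY (-2.44), which lie on the minus strand like ND6. TRNN, for asparagine, was at 74.9, 68.9 and 63.0 CPM in C and 16.7, 20.0 and 25.4 CPM in D and stayed called whichever library was left out. TRNC kept its call only without C3 or D3 and TRNP only without C2 or D3, and TRNY lost it without any 1 library (adjusted p up to 0.0726, 0.0811 and 0.139). TRNN and TRNC were chosen after their values were seen. TRNE, the fifth tested on that strand, was below 0 as well (-1.62, not called). None of the 10 tested tRNAs on the plus strand was called, 6 were above 0, and 9 of the 10 averaged under 5 CPM, the exception being TRNL1 (-1.66, adjusted p = 0.181, and 0.0157 with the block). With the replicate block 2 of those 10 were lower, against 7.67% of all genes. TRNR was higher with it, as were 6.23% of all genes (log2 fold change 1.09 without the block, adjusted p = 0.0272 by edgeR with it). The strand setting of the counting is not given in the sources used here, so reads from a minus-strand gene and from the plus-strand precursor across it cannot be told apart, and short tRNAs are counted poorly from long fragments. Along the 12 plus-strand mRNAs the log2 fold change had a Spearman correlation with position of -0.455, a description over genes cut from shared precursors. MTCO1P12, a nuclear copy of COX1 on chromosome 1, fell by 2.36 on the log2 scale, lost its call without any 1 library (adjusted p up to 0.0881), and reads cannot be divided with certainty between it and COX1.

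**Figure D2:**
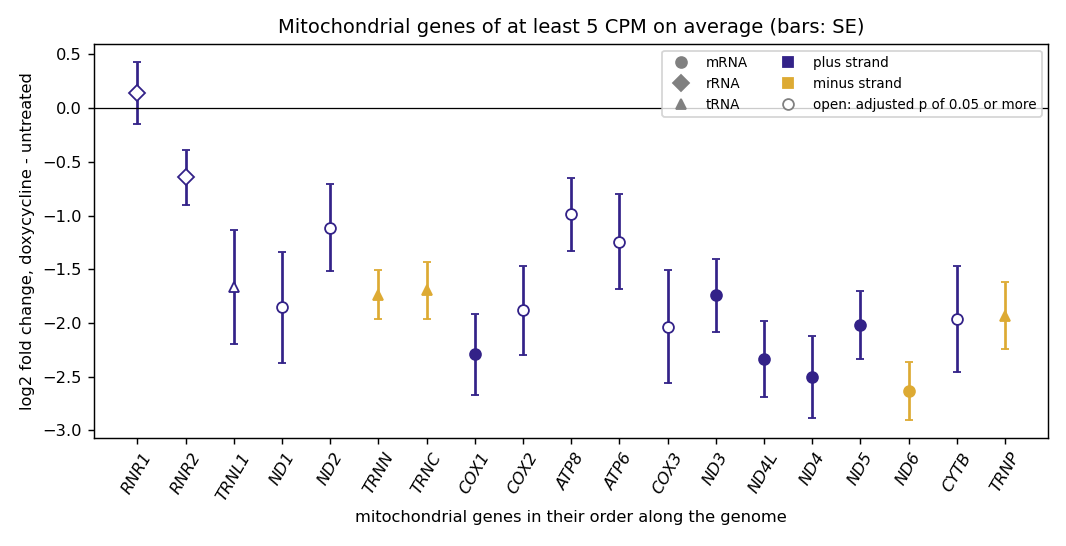
Log2 fold change (doxycycline minus untreated, bars SE) of the 19 mitochondrial genes that averaged at least 5 CPM, in their order along the genome. Plus-strand rRNAs sit at 0.14 and -0.65, while all mRNAs lie between -2.63 and -0.99 and the minus-strand genes lie at -1.70 or lower.

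Nuclear genes for the same machinery moved little. Among 39 genes of complexes II to V, 38 had a log2 fold change below 0, with a median of -0.23. Of the 39, 1 was called lower, against 0.733% of all genes. That gene was COX7C, a small subunit of complex IV, at 159, 149 and 166 CPM in C and 106, 103 and 115 CPM in D, a log2 fold change of -0.55 (SE 0.0997, adjusted p = 0.0278 by edgeR). The call was lost without any 1 library (adjusted p up to 0.132), and with the replicate block 16 of the 39 were called lower (7.67% of all genes), and 2 with the block on only the 6 libraries. The median of the 39 ran from -0.38 without D3 to -0.13 without D2. COX6B1 came next at -0.76 (adjusted p = 0.0901). None of 37 complex I genes, 77 mitochondrial ribosomal proteins or 32 genes of mitochondrial transcription and RNA and DNA maintenance was called, with medians of -0.09, -0.10 and -0.06. The complex I median became -0.24 without D3, -0.17 without C1, -0.15 without C2, -0.02 without C3 and -0.03 without D2. Cytosolic ribosomal proteins had a median of -0.18 with 74 of 84 below 0 and none called. The replicate block called 22 of them lower against 7.67% of all genes, and 1 on only the 6 libraries. DESeq2, the other tool, called 5 of the complex II to V genes and 11 of the ribosomal proteins lower. Of all 15828 genes it called 429 lower. For the median of ribosomal proteins, library-size scaling gave -0.09.

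Among genes of the amino acid response, 5 were called higher in D and most were not called. INHBE, the inhibin beta E chain, which is secreted, was at 1.17, 1.74 and 0.436 CPM in C and 11.1, 9.94 and 43.8 CPM in D. It had the largest positive log2 fold change of the genes called, at 4.25 (SE 0.772, adjusted p = 0.0278 by edgeR). CHAC1, which degrades glutathione, was at 2.89, 2.43 and 1.93 CPM in C and 17.4, 10.04 and 69.1 CPM in D, with a log2 fold change of 3.73 (SE 0.751, adjusted p = 0.0425 by edgeR). In both genes every D library exceeded every C library, and D3 was several times the other two. Both calls were lost when any library but D2 was left out, with adjusted p up to 0.132 for INHBE and 0.204 for CHAC1.

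Of 18 ATF4 regulators and stress effectors tested, these 2 were called higher (against 0.493% of all genes) and 16 had a log2 fold change above 0, with a median of 1.21. The medians of D over C for same-numbered libraries were 0.42, 0.64 and 1.54, and the median of the fit was 0.61 without D3. The replicate block called 7 of the 18, against 6.23% of all genes called higher, and 2 on only the 6 libraries. Among those that passed only with it were SESN2, an inhibitor of mTORC1 at 16.1, 13.4 and 11.3 CPM in C and 44.6, 25.9 and 93.9 CPM in D (adjusted p = 0.0628 without the block and 0.0131 with it). The transcription factor CEBPB was another, at 27.3, 19.4 and 32.8 CPM in C and 64.6, 33.0 and 189 CPM in D (0.164 and 0.0172), where D3 was again far above D1 and D2. ATF4 itself was at 338, 351 and 253 CPM in C and 391, 435 and 515 CPM in D, with no overlap, and passed in neither fit (0.51, adjusted p = 0.215, and 0.0517 with the block, by edgeR). ATF3, a stress-induced transcription factor, was at 5.41, 3.13 and 9.23 CPM in C and 7.63, 7.87 and 29.1 CPM in D, overlapping between groups (1.33, adjusted p = 0.428, and 0.0102 with the block). These 4 genes were chosen after their values were seen.

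Amino acid transporters gave 2 called of 19 tested, both higher, against 0.493% of all genes. SLC7A1, the cationic amino acid transporter CAT1, was at 159, 179 and 186 CPM in C and 307, 257 and 398 CPM in D, with a log2 fold change of 0.88 (SE 0.181, adjusted p = 0.0464 by edgeR). SLC43A2, a transporter of large neutral amino acids, was at 42.5, 46.0 and 45.1 CPM in C and 64.8, 67.8 and 60.1 CPM in D, with a log2 fold change of 0.53 (SE 0.0906). SLC7A1 stayed called only without D2, and missed the threshold once the length trend was removed (adjusted p = 0.0709). SLC43A2 stayed called only without D3. SLC7A11, the cystine importer, was at 2.70, 1.79 and 1.62 CPM in C and 33.4, 7.66 and 114 CPM in D, a log2 fold change of 4.66 (SE 1.03). SLC7A11 missed the threshold without the replicate block and passed with it (adjusted p = 0.0591 and 0.00892 by edgeR). It was also chosen after its values were seen. The replicate block called 9 of the 19 transporters higher, against 6.23% of all genes, and 6 on only the 6 libraries.

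In serine, folate, proline and asparagine synthesis ALDH1L2 was the only gene called of 20, against 0.493% of all genes called higher. The block called 7 higher and 1 lower, against 6.23% and 7.67% of all genes, or 3 higher on only the 6 libraries. CBS, which joins serine to homocysteine, had a log2 fold change of 1.44 (adjusted p = 0.0639), or 0.87 without D3, and ASNS, asparagine synthetase, was at 1.72, 2.28 and 1.75 CPM in C and 3.24, 6.11 and 9.79 CPM in D (1.73, adjusted p = 0.0718, and 0.012 with the block), with no overlap. ASNSP1, a pseudogene of ASNS, was called (3.24), with reads that may belong to ASNS, and lost the call without any 1 library (adjusted p up to 0.158). Cytosolic aminoacyl-tRNA synthetases had a median of 0.33 with 15 of 20 above 0 and none called. The block called 8 of them higher and 1 lower, against 6.23% and 7.67% of all genes, and on only the 6 libraries none. Among the synthetases, GARS1, for glycine, was at 209, 226 and 204 CPM in C and 319, 268 and 461 CPM in D (0.71, adjusted p = 0.111), AARS1, for alanine, at 231, 231 and 243 CPM in C and 315, 268 and 498 CPM in D (0.61, adjusted p = 0.256, and 0.0415 with the block), and QARS1, for glutamine, had the opposite sign (-0.41, adjusted p = 0.114). AARS1 and ASNS were chosen for their promoters. Their mitochondrial counterparts had a median of -0.02 over 17 genes. No gene of the eIF2α kinases and phosphatase list was called of 11, where the median was -0.01.

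**Figure D3:**
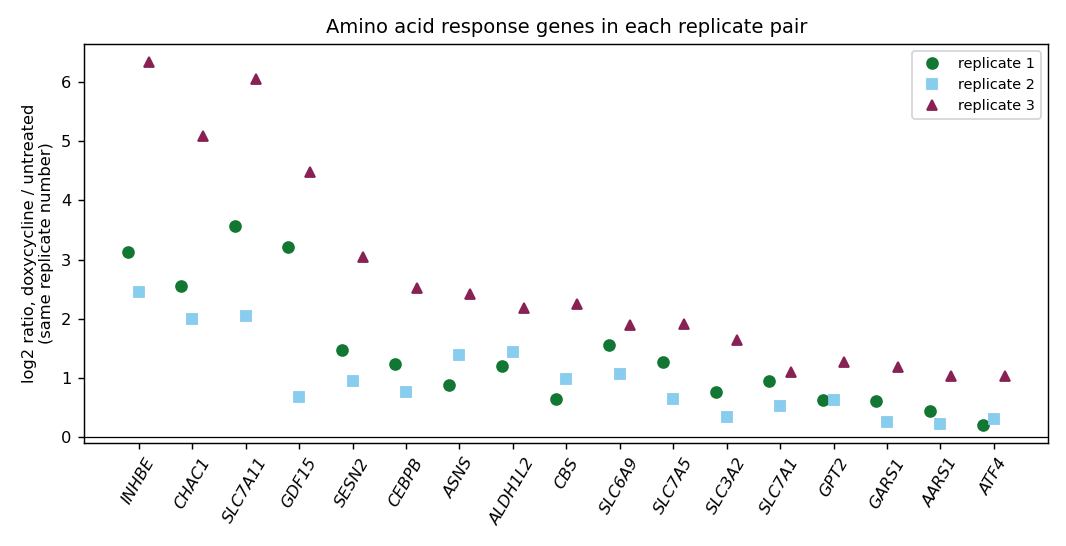
Log2 ratio of doxycycline to untreated CPM for same-numbered libraries, for 17 genes of the amino acid response. The genes were chosen after their values were seen, replicate 3 gives the highest ratio in each of them, and all ratios lie above 0.

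Hypoxia genes divided the D libraries among themselves. SLC16A3, the lactate exporter MCT4, was at 316, 290 and 392 CPM in C and 11.6, 362 and 20.8 CPM in D. CA9, carbonic anhydrase IX, was at 22.2, 15.6 and 28.7 CPM in C and 0.0953, 15.4 and 0.116 CPM in D, the D1 and D3 values being below the level of 3 counts. NDRG1, a hypoxia-induced stress protein, was at 91.2, 59.3 and 121 CPM in C and 9.20, 176 and 11.1 CPM in D. In all 3, D1 and D3 were below every untreated library, and D2 was within or close to the untreated range or above it. None passed the test (adjusted p = 0.722 for SLC16A3, 0.657 for CA9 and 0.919 for NDRG1 by edgeR), and these 3 were chosen after their values were seen.

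Ratios of same-numbered libraries divided in the same way in both lists. Over 17 hypoxia genes the median log2 ratio of D to C was -1.10 in replicate 1, 0.65 in replicate 2 and -1.18 in replicate 3, and over 24 glycolysis genes it was -1.11, 0.05 and -1.33. The fitted median of the hypoxia list was -0.22, became -1.08 without D2, and turned to 0.0437 without D1 and 0.0263 without D3. The glycolysis median was -0.75, and ran from -1.16 without D2 to -0.47 without D3. No glycolysis gene was called, though TPI1 (-0.84), ENO1 (-1.06), PKM (-0.75), PGAM1 (-0.74), LDHA (-0.88) and others were lower in each D library than in each C library, 7 of 24 in all, against 9.1% of all genes tested. With the replicate block 5 were called lower, against 7.67% of all genes, and none of them on only the 6 libraries. DESeq2 called 3 lower, where it called 429 of all 15828 genes lower. TPI1 was at 1497, 1324 and 2198 CPM in C and 828, 1052 and 928 CPM in D, and ENO1 at 3613, 1968 and 3030 CPM in C and 1188, 1810 and 1135 CPM in D. In both genes C2 was the lowest untreated library, and D2 was below it but above D1 and D3. Without D2 their log2 fold changes were -0.93 and -1.31. Among these only TPI1 and ENO1 were named by rule.

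Of 17 hypoxia genes 2 were called, both higher, against 0.493% of all genes. They encode subunits of the hypoxia-inducible factors. EPAS1, which encodes HIF-2α, was at 69.2, 50.2 and 43.3 CPM in C and 147, 145 and 99.2 CPM in D, with a log2 fold change of 1.27 (SE 0.224, adjusted p = 0.0256 by edgeR). ARNT, the partner subunit HIF-1β, was at 63.2, 69.9 and 60.7 CPM in C and 88.4, 85.4 and 81.3 CPM in D, with a log2 fold change of 0.40 (SE 0.0805, adjusted p = 0.0437 by edgeR). D2 did not stand apart in either gene. EPAS1 stayed called without C1 or D3 only and ARNT lost its call without any 1 library, with adjusted p up to 0.126 and 0.214, and ARNT's p was 0.0497 with the length trend removed.

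**Figure D4:**
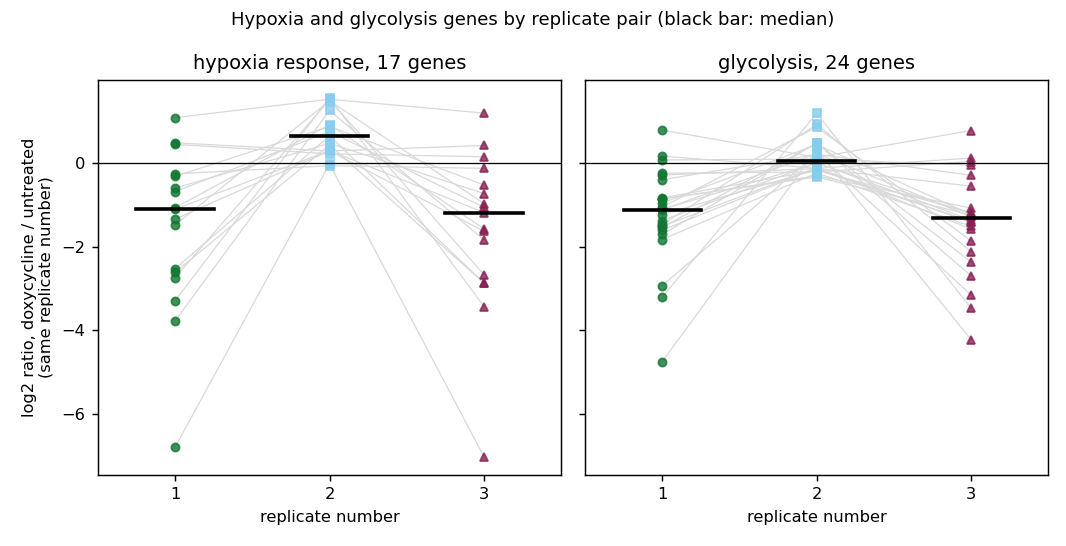
Log2 ratio of doxycycline to untreated CPM for same-numbered libraries, for 17 hypoxia genes and 24 glycolysis genes, with the median as a black bar and grey lines joining a gene. Medians are -1.10, 0.65 and -1.18 for hypoxia and -1.11, 0.05 and -1.33 for glycolysis.

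Under IFNγ SLC16A3 was at 280, 433 and 475 CPM in I and 13.7, 547 and 45.6 CPM in DI, with DI1 and DI3 low and DI2 not.

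Of 15 genes of catecholamine synthesis and storage 1 was called lower and 12 had a log2 fold change below 0, with a median of -0.48. That median was -0.26 without C3 and -0.24 without D1. The replicate block called 4 lower, against 7.67% of all genes. On only the 6 libraries it called 1, against 2.84% of all genes in either direction. The gene called, GCH1, the first enzyme in making the cofactor of tyrosine hydroxylase, was at 18.6, 17.4 and 23.9 CPM in C and 5.10, 6.42 and 9.73 CPM in D, and fell by 1.497 on the log2 scale (SE 0.217, adjusted p = 0.0118 by edgeR). Every D library was below the lowest C library, and the call was lost only without C3 (adjusted p = 0.0526). CYB561, the electron carrier of secretory vesicles, had a log2 fold change of -1.06 (adjusted p = 0.0575). TH, tyrosine hydroxylase, was at 47.3, 3.13 and 74.7 CPM in C and 1.33, 7.04 and 0.695 CPM in D, a log2 fold change of -3.78 with an SE of 1.32 (adjusted p = 0.219). C2 and D2 lay close together in TH and the other replicates far apart, and this gene too was chosen after its values were seen. STMN2 was the only neuronal differentiation gene called of 26, and none of 19 adrenergic core factors or 17 mesenchymal neuroblastoma genes was called. The medians of these 3 lists were -0.08, -0.05 and 0.14.

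Most other lists held 1 called gene or none, where 1.23% of all genes were called. They were the mitotic checkpoint kinase BUB1B among 36 cell cycle genes (-0.67), the pro-apoptotic BAD among 15 BCL2 family genes (-0.72), the MAX partner MXD3 among 22 MYC network genes (-0.49), DNAJB9 among 20 chaperones of the endoplasmic reticulum, STARD4 among 24 cholesterol genes and PKIA among 16 genes of protein kinase A. All of these were lower in D. BUB1B lost its call without C3 (adjusted p = 0.0671) and BAD and MXD3 lost theirs without any 1 library (up to 0.19 and 0.123). In the protein kinase A list the replicate block called 6 genes lower, against 7.67% of all genes. On only the 6 libraries it called 3, against 2.84% of all genes in either direction. Among the 6 was the regulatory subunit PRKAR1A (-0.61, adjusted p = 0.082 by edgeR without the block). p53 targets (22), autophagy and lysosome genes (24), NRF2 and glutathione genes (21), immediate early genes (13), extracellular matrix genes (26), polycomb repressive complex 2 genes (13) and mitochondrial chaperones and proteases (16) had no gene called. Their medians lay between -0.17 and 0.11.

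Without IFNγ, interferon genes were at low levels. Of 52 tested, 1 was called, against 1.23% of all genes. Among the 52, 16 had a log2 fold change above 0 and 31 below 0, and the others had no count in the 6 libraries. With only the 6 libraries, 26 interferon genes passed the filter on low counts. The rest entered the test through the IFNγ libraries, and their direction here rests on few counts. RIGI, a cytoplasmic sensor of viral RNA, was at 1.54, 2.14 and 1.68 CPM in C and 3.43, 5.49 and 3.47 CPM in D, with a log2 fold change of 1.20 (SE 0.25, adjusted p = 0.0472 by edgeR). Its call was lost without any 1 library (adjusted p 0.0735 to 0.204) and with the length trend removed (adjusted p = 0.0514). Under IFNγ RIGI was at 39.6, 45.4 and 28.0 CPM in I and 28.4, 25.9 and 23.6 CPM in DI, a log2 fold change of -0.54. The difference between the 2 effects was -1.74 on the log2 scale (unadjusted p = 0.000305, adjusted p = 1 by edgeR). DESeq2 gave an adjusted p = 0.0319 for that difference. SAMD9L, an interferon-inducible gene outside the list and chosen after its values were seen, was called lower (adjusted p = 0.0168 by edgeR). It was at 0.246, 0.497 and 0.623 CPM in C, and in D at 0 in D1 and D2 and 0.0579 CPM in D3, all below the level of 3 counts. It stayed called only without C1 or D3 (adjusted p up to 0.0779), and no fold is given at this depth. With only the 6 libraries SAMD9L did not pass the filter on low counts.

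Other genes at the extremes came from no list. SLC16A6, a monocarboxylate transporter family member, was at 0.184, 0.0993 and 0.436 CPM in C, around the level of 3 counts, and 2.57, 4.45 and 2.43 CPM in D, so its log2 fold change of 3.71 is loosely bounded (SE 0.623). It stayed called only without C3 or D3 (adjusted p up to 0.0984). UNC5B, a netrin receptor, was at 81.1, 84.7 and 58.9 CPM in C and 272, 151 and 276 CPM in D, and rose by a log2 fold change of 1.64 (SE 0.267, adjusted p = 0.0177 by edgeR). Its adjusted p was 0.016 without D2 and at most 0.101 without another library, and only without D2 did it stay called. LINC02604 (1.21) was the one lincRNA called, and GTF2IP13 (1.33) is a pseudogene of the GTF2I family whose reads may belong to its parent. LINC02604 stayed called without C1 or D3 only and GTF2IP13 without D3 only (adjusted p up to 0.098 and 0.124).

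Gene length went with direction. The 78 genes called higher had a median exonic length of 10169.5 bases, against 4570 for the 116 called lower, 4851.5 for the 106 of these that are nuclear, and 4685.5 for all tested genes. Genes were put into 10 equal classes of exonic length. In the class with the longest exons 38 were called higher and 5 lower, and in the shortest class none was called higher and 15 lower, 9 of them mitochondrial genes. The median log2 fold change went from -0.08 in the shortest class to 0.15 in the longest, where the medians of same-numbered libraries were 0.15, 0.15 and 0.13. Long genes called higher, chosen after their values were seen, included HUWE1 (0.72), UBR4 (0.80) and HERC2 (0.69), which are ubiquitin ligases, KMT2D, a histone methyltransferase (1.14), and PRKDC, the DNA repair kinase (0.75). Each lost its call without 3 or more of the libraries, C2, C3 and D1 among them, and HUWE1 alone of these stayed called with the length trend removed (adjusted p = 0.0493).

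Removing each library's trend with length, an alternative chosen after seeing the data, left 155 genes called, 42 higher and 113 lower, and 140 of the 194 were still among them. With the replicate block as well, 1838 were called, 743 higher and 1095 lower. D libraries also gave less to their 100 most abundant genes, 15.5 to 16.2% of counts against 18.9 to 21.0% in C. Mitochondrial mRNAs are abundant, and their share of counts was 0.856 to 1.3% in D against 3.35 to 4.99% in C. Their part in the drop of the 100 genes was not computed. The part of RNA quality or library preparation in the length pattern was not tested.

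**Figure D5:**
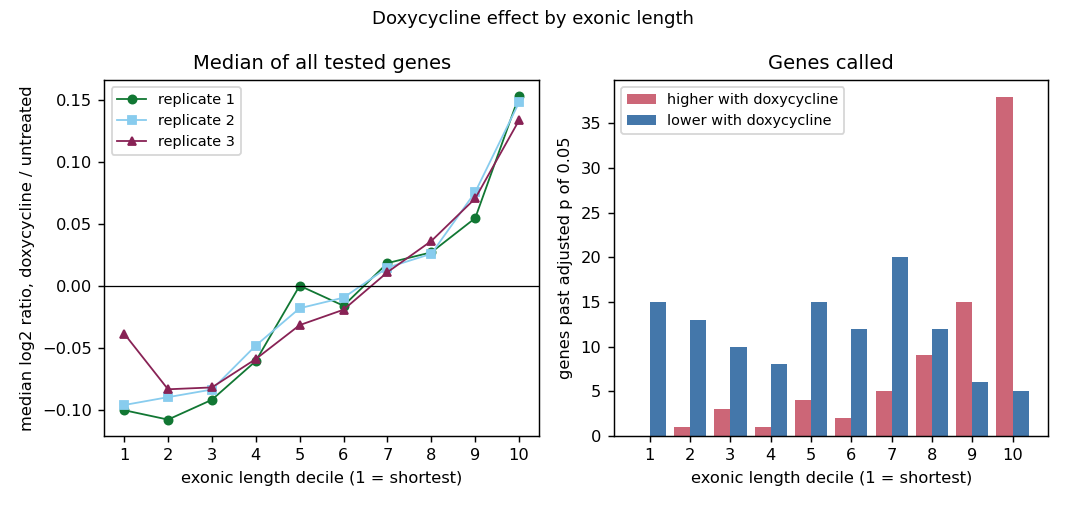
Left, median log2 ratio of doxycycline to untreated CPM over all tested genes in 10 classes of exonic length, by replicate number; right, genes called higher or lower in each class. All 3 replicates rise from below 0 to between 0.13 and 0.15 in the longest class, where 38 genes are called higher.

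The same contrast under IFNγ, DI against I, uses other libraries in the same fit. There 106 genes were called (0.67%), and 88 of them were among the 194 called without IFNγ, which is 83% of the 106 and 45.4% of the 194. All 88 went the same way, and 192 of the 194 had the same sign, a share that was not computed over all genes. Both contrasts take the spread of each gene from the same fit. Among those 30 genes, PKIA (-2.32), BEX1 (-1.66), TMBIM6 (-1.25), STARD4 (-1.29), CCAR1 (0.77) and ALDH1L2 (1.72) were called in both. Mitochondrial mRNAs had a median of -1.40 in DI against I with 3 called, and INHBE (4.53) was called. By replicate number the mitochondrial medians were -0.85, -1.85 and -2.01, and DI1 stood apart with 2.58% of its counts in these mRNAs against 1.12% in DI2 and 0.768% in DI3. These libraries share replicate numbers with those of D and C, and whether they are independent of them was not tested. No gene was called for a difference between the effects with and without IFNγ by edgeR, where 99 had an unadjusted p under 0.05. DESeq2 called 2 such genes, RIGI and IL18BP. IL18BP, the secreted decoy of interleukin 18, had a log2 fold change of 0.33 without IFNγ and -1.10 with it, a difference of -1.43 (unadjusted p = 5.7e-05 and adjusted p = 0.903 by edgeR, adjusted p = 0.000638 by DESeq2).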

How the data were processed

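Total RNA was sequenced as paired-end reads. RNA selection, aligner, counting tool and its strand setting are not given in the sources used here. The authors deposited raw counts per gene, whole numbers for 43769 genes, and all identifiers matched GENCODE 29 (GRCh38), the source of positions, types and exonic lengths. Tables of the authors' own comparisons (log2 fold changes and p-values) were not used, nor were 18 columns whose names match no label. The submitters' processing notes name DESeq2.

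Counts were filtered (filterByExpr, minimum count 10), scaled by TMM and tested with edgeR 4.0.16 (limma 3.58.1, R 4.3.3), quasi-likelihood, in 1 model of the 4 groups of 12 libraries, two-sided, with Benjamini-Hochberg adjustment over 15828 genes. Genes with an adjusted p under 0.05 are called higher or lower. CPM use TMM-scaled library sizes, and ratios of same-numbered libraries use log2 CPM with a prior count of 2. DESeq2 1.42.0, other scalings and filters, a replicate block and leaving out libraries were alternatives. Code was tested on simulated counts. Python 3.11.15 searched promoters.

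Named genes were the 10 largest and 10 smallest log2 fold changes (called, mean of at least 1 CPM, groups not overlapping), the 10 nuclear genes with the smallest adjusted p, SWI/SNF subunits, all mitochondrial mRNAs, and in each list up to 6 called members or, with fewer than 2 called, the 2 with the smallest p. Members and lists were chosen with earlier results of these data known, and lists come from general knowledge.

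Same-numbered C and D libraries deviated together from their group means (r = 0.387, 0.353 and 0.613 across genes for numbers 1 to 3). For other pairs r ran from -0.466 to 0.143. The numbers were used as a block for this reason, though the labels do not say what they mark. With 3 libraries a group few matchings are possible, and the pairing was not tested. Replicates differed by more than counting noise (chi-square per gene 19.1 to 60.2, where counting alone gives about 1). Depth was 16469832 to 20338499 counts, and the 3-count floor covers counting error only.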

Additional observations from a re-analysis of the deposited data

How the results depend on the processing

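All 194 called genes kept their sign without any 1 C or D library, 30 stayed called in each of these 6 fits and 73 in none, and the count called ran from 42 to 98. It was 119 with no filter on low counts, 16 with only the 6 libraries, 2200 with the replicate block, 420 with the replicate block on only the 6 libraries, 825 with DESeq2, 1838 with the length trend removed and the replicate block, 32 at an adjusted p under 0.01 and 53 with a change of at least 1 on the log2 scale. DESeq2 size factors (193), a mean of at least 1 CPM (229), library size alone (288) and the length trend removed (155) kept it within 1.5 times. The ATF4 list's median of 1.21 ran from 0.61 to 1.496 without 1 library, and that of mitochondrial mRNAs, -1.96, from -2.09 to -1.74. For a difference between the effects with and without IFNγ, DESeq2 called 2 genes where edgeR called 0. The log2 fold change of NDRG1, -0.47, turned to 0.0437 without D1 and 0.0263 without D3 and was -3.16 without D2. The cause of these changes was not tested. Beyond the values given in the text, the paired fit with the replicate block removed no call. With 3 libraries a group, genes near the threshold rest on single libraries.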
